A study of Mus musculus with 7 samples.

Results

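Expression of 10 endothelial genes was examined in osteocyte-enriched long bone: Emcn, Pecam1, Cdh5, Kdr, Flt1, Tek, Tie1, Vwf, Plvap and Robo4. They were chosen by name, as endomucin and a set of endothelial marker genes. The choice was out of 19938 genes that the array's annotation names by a probe set of their own. Each of the 10 has 1 such probe set, and all 10 passed the filter on low signal (an intensity of 69.7), so every one was tested among 13938 genes. Bone came from male mice aged 39 to 41 weeks, 4 labelled wildtype and 3 labelled DMP1 cre Mbtps1 knockout, and the series title calls the controls littermates. Whether the controls carried Cre or floxed alleles is not given in the labels. Dmp1-Cre is a recombinase line driven by a promoter of osteocytes and late osteoblasts, and Mbtps1 encodes site-1 protease, which cleaves membrane-bound transcription factors in the Golgi. Endothelial cells are not the main site of this Cre. Marrow had been removed, and bone pieces had gone through 4 rounds of collagenase and EDTA before RNA was isolated. A single Affymetrix whole-transcript array was run per mouse.

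Endothelial cells line every blood vessel. In long bone, capillaries with high endomucin and high CD31 (the product of Pecam1), called type H, lie near the growth plate and the bone surface and are known to accompany bone-forming cells, whereas marrow sinusoids carry less of both. VEGF signals through the receptors encoded by Kdr and Flt1, and the angiopoietins signal through the receptor encoded by Tek, with Tie1 as its partner.

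The upstream sequences of Emcn, Tie1 and Robo4 are shown, because only their promoter windows held a long enough stretch outside the annotated gene. Expression values played no part in this choice. The RefSeq promoter table (GRCm38.p6, from 250 bases before to 50 after a start given for the gene) holds 6 of the 10 genes, namely Emcn, Kdr, Flt1, Tek, Tie1 and Robo4. The windows of Kdr and Flt1 lie wholly inside the annotated genes, and so does most of the window of Tek. Only bases upstream of each annotated gene are printed, 5′ to 3′ on the gene's strand. Capitals mark GGAA or its reverse complement TTCC, the core that ETS factors such as ERG and FLI1 bind.
Emcn (chr3:137340828-137341061, plus strand, 234 bases): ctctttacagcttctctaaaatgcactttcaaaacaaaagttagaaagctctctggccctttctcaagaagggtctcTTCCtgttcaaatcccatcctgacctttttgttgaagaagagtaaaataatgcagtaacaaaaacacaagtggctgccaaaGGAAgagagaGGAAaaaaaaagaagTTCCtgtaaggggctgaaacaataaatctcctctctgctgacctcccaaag
Tie1 (chr4:118489850-118490099, minus strand, 250 bases): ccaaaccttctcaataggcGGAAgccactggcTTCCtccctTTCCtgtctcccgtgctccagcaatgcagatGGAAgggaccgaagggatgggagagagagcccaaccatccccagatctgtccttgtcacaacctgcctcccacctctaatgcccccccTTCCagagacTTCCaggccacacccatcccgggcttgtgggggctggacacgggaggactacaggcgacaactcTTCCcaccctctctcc
Robo4 (chr9:37401722-37401901, plus strand, 180 bases): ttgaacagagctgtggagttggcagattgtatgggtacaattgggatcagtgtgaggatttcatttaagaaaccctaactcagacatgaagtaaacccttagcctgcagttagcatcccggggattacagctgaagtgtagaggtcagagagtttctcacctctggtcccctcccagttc

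The printed stretch of Emcn held 4 ETS cores, that of Tie1 held 7 and that of Robo4 held 0. Over the whole window of 300 bases, on both strands, the counts of GGAA were 6 for Emcn, 9 for Tie1, 5 for Kdr, 4 for Flt1, 4 for Robo4 and 2 for Tek. At least 4 such cores were found in 46.3% of all 32851 promoter windows of that length, at least 6 in 15.7% and at least 9 in 1.59%. The longer string AGGAAG, which contains the core, was found in the windows of Emcn, Flt1, Tie1 and Robo4 and in 35.4% of all windows. The string GATAA, read by GATA factors, was found in those of Emcn and Tek and in 25.4% of all. The match of letters describes these windows and is not evidence of a bound site.

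Values are the deposited linear intensities of probe sets. Fold changes are differences of log2(intensity + 16), knockout minus control, with their standard error (SE), and the added 16 makes the changes of dim genes look smaller than they are. They come from limma, a linear model fitted over all genes with pooled information on variance, and p-values were adjusted over all genes by the Benjamini-Hochberg method. With 7 arrays in all, precision is limited by their number. A level of one probe set cannot be set against that of another as an amount of RNA.

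Array medians ran from 87.3 to 107.7. Controls 4 and 3 sat at the ends of the first principal component (53.1% of the variance). The targeted gene read 149 ± 12.9 in controls and 125 ± 24.9 in knockouts (SD, n = 4 and 3), a log2 fold change of -0.23 (SE 0.14, limma adjusted p = 0.807), with knockout 3 inside the control range, so the Mbtps1 probe set does not separate the groups; whether it reads the deleted exons was not analysed here. Most osteocyte markers were well measured in both groups, as the tissue label requires, and so were markers of neutrophils and erythroid cells. In knockouts, however, the osteocyte markers Ptprz1 (mean 66.2) and Irx5 (80.2) read under or near the signal filter of 69.7. In bulk RNA, fewer cells of a type and less RNA per cell cannot be told apart.

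Over all 13938 genes, limma called none at an adjusted p under 0.05 (0%), and 904 (6.49%) had an unadjusted p under 0.05. That number depended on single arrays: leaving out control 4 gave 1803 and control 3 gave 1419, while dropping knockout 3 left 430 and knockout 1 left 325. None of the 10 endothelial genes passed the adjusted threshold. At an unadjusted p under 0.05, Emcn and Tek were lower in knockout bone, 2 of 10 against 2.71% of all genes, and none was higher, against 3.77%. Without control 3 or without knockout 3, 1 was higher, Vwf (limma unadjusted p = 0.0300 and 0.0391). In 2 of the 10, Emcn and Cdh5, every knockout array lay under every control array, which held for 2.76% of all genes (7.99% when both directions are counted). In none did every knockout array lie above every control, against 5.22%. The median log2 fold change of the 10 was -0.05, beside 0.07 over all genes. There were 8 of 10 below 0, beside 32.3% of all genes.

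Endomucin, the sialomucin of capillary and venous endothelium, read 266, 259, 335 and 359 in controls 1 to 4 and 162, 216 and 219 in knockouts 1 to 3. All 3 knockouts lay under all 4 controls. The means were 305 ± 49.7 in controls and 199 ± 32.3 in knockouts (SD, n = 4 and 3), so the knockout mean was 65.3% of the control mean. The log2 fold change of Emcn was -0.58 (SE 0.16, 95% interval -0.92 to -0.23), the 77th smallest unadjusted p (0.00344) among the 13938 genes in limma. It did not pass over all genes (limma adjusted p = 0.605). A two-sided exact permutation test of Emcn over the 35 splits of the arrays gave p = 0.0286, the smallest it can give. This p reflects the lack of overlap between the groups, which 7.99% of all genes showed in either direction. Emcn was also chosen with earlier results known, so the p is not independent support. With each array left out in turn, the Emcn log2 fold change ran from -0.65 to -0.44, with the smallest change without knockout 1. Without controls 3 and 4 it was -0.39.

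**Figure D1:**
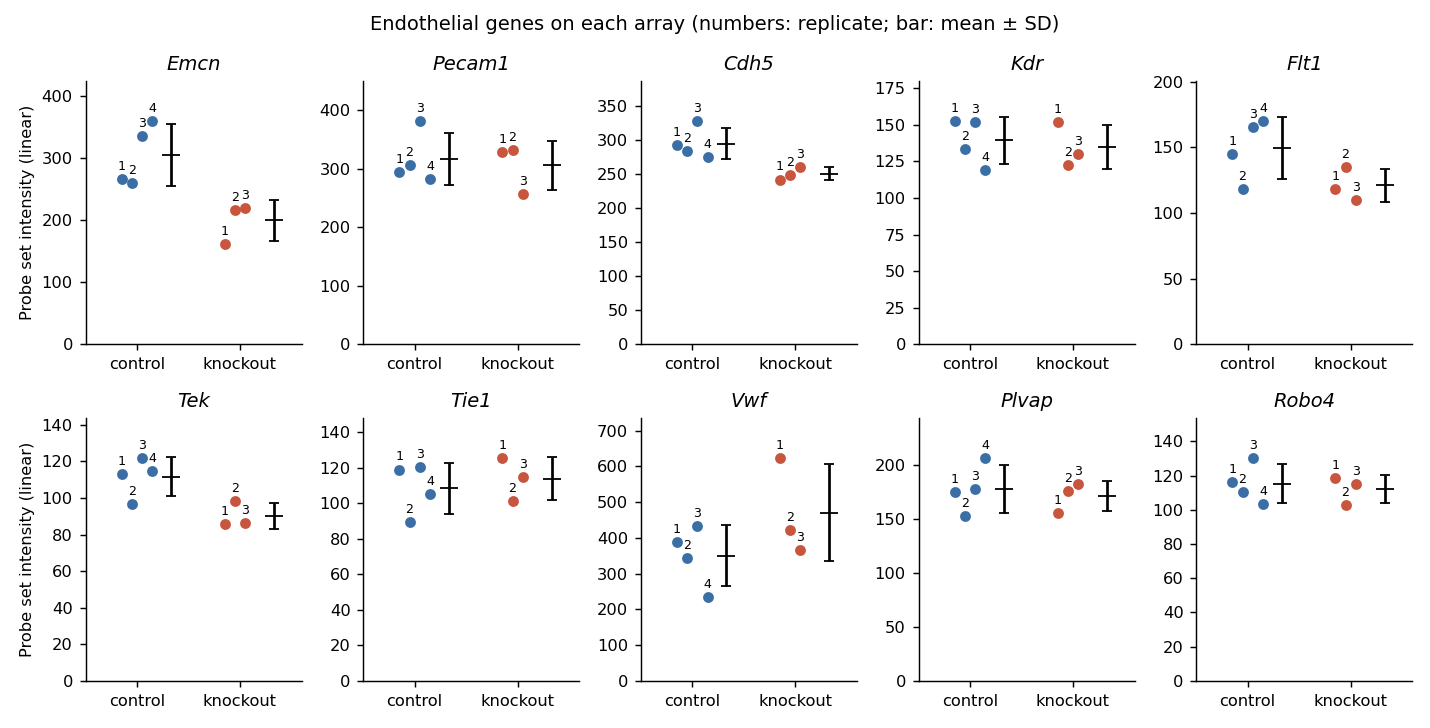
Probe set intensity (linear axis from 0) of the 10 endothelial genes on each array, with replicate numbers beside the points and the mean ± SD of 4 controls (blue) and 3 knockouts (red) as a bar. Emcn (knockouts 162 to 219, controls 259 to 359) and Cdh5 (242 to 260 and 274 to 327) are the panels in which the groups do not overlap, and Vwf has the widest spread.

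Junction and adhesion genes came next. Cdh5, which encodes VE-cadherin of endothelial adherens junctions, read 293, 283, 327 and 274 in controls 1 to 4 and 242, 248 and 260 in knockouts 1 to 3. The groups did not overlap, but knockout 3 and control 4 lay close together. The Cdh5 log2 fold change was -0.22 (SE 0.13, 95% interval -0.49 to 0.05, limma adjusted p = 0.804). The exact permutation test, two-sided, gave p = 0.0286 for Cdh5, with the same limit as for Emcn.

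Pecam1, which encodes the junction protein CD31 and is also carried by platelets and leukocytes, read 294, 306, 381 and 281 in controls and 328, 331 and 257 in knockouts. Control 3 was highest and knockout 3 lowest, and the other arrays of the groups overlapped. Its log2 fold change was -0.04 (SE 0.15), with a 95% interval from -0.37 to 0.28, and it turned to 0.04 without control 3 and to 0.07 without knockout 3. Endomucin and CD31 together define type H capillaries, and the fold changes of their genes were -0.58 and -0.04.

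Among VEGF receptors, Flt1, which binds VEGF tightly and signals weakly, read 145, 118, 166 and 170 in controls 1 to 4 and 118, 135 and 110 in knockouts 1 to 3. Control 2 lay among the knockouts, and the other 3 controls lay above all knockouts. The Flt1 log2 fold change was -0.27 (SE 0.14, limma adjusted p = 0.794), and it was -0.11 without controls 3 and 4. Kdr, the main signalling receptor for VEGF, read 153, 134, 152 and 119 in controls and 152, 123 and 130 in knockouts. The Kdr groups overlapped, with a log2 fold change of -0.04 (SE 0.13, 95% interval -0.32 to 0.23), which turned to 0.02 without knockout 2.

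Of the angiopoietin receptor pair, Tek (TIE2) read 113, 96.5, 122 and 115 in controls 1 to 4 and 85.8, 98.5 and 86.2 in knockouts 1 to 3. Knockout 2 lay above control 2, and apart from that pair the knockouts were lower. The Tek log2 fold change was -0.26 (SE 0.12, 95% interval -0.53 to -0.0015, limma adjusted p = 0.768). Its unadjusted limma p (0.0489) was under 0.05 in 5 of the 18 alternative settings that tested it. The exact permutation test, two-sided, gave p = 0.0857 for Tek. Tie1 read 119, 89.2, 120 and 105 in controls and 125, 101 and 115 in knockouts. Its groups overlapped (log2 fold change 0.07, SE 0.13, 95% interval -0.22 to 0.35), and without control 2 the value was -0.01.

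Plvap, which forms the diaphragms of fenestrated endothelium, read 175, 153, 178 and 206 in controls 1 to 4 and 156, 175 and 182 in knockouts 1 to 3. Robo4, an endothelial receptor that stabilises vessels, read 116, 111, 130 and 104 in controls and 119, 103 and 115 in knockouts. Both overlapped between groups. Their log2 fold changes were -0.05 (SE 0.13, 95% interval -0.33 to 0.23) for Plvap and -0.03 (SE 0.12, 95% interval -0.29 to 0.23) for Robo4, and Plvap turned to 0.02 without control 4. Robo4 was 0.02 without control 3.

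Vwf, the clotting factor stored in endothelial cells, megakaryocytes and platelets, had the widest spread and pointed the other way. It read 388, 345, 434 and 235 in controls 1 to 4 and 624, 423 and 365 in knockouts 1 to 3. Knockout 1 was highest and control 4 lowest, and the other 5 arrays overlapped. The Vwf log2 fold change was 0.41 (SE 0.22, 95% interval -0.07 to 0.88, limma adjusted p = 0.804). The exact permutation test, two-sided, gave p = 0.257 for Vwf. The log2 fold change was 0.19 without knockout 1 and 0.23 without control 4.

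**Figure D2:**
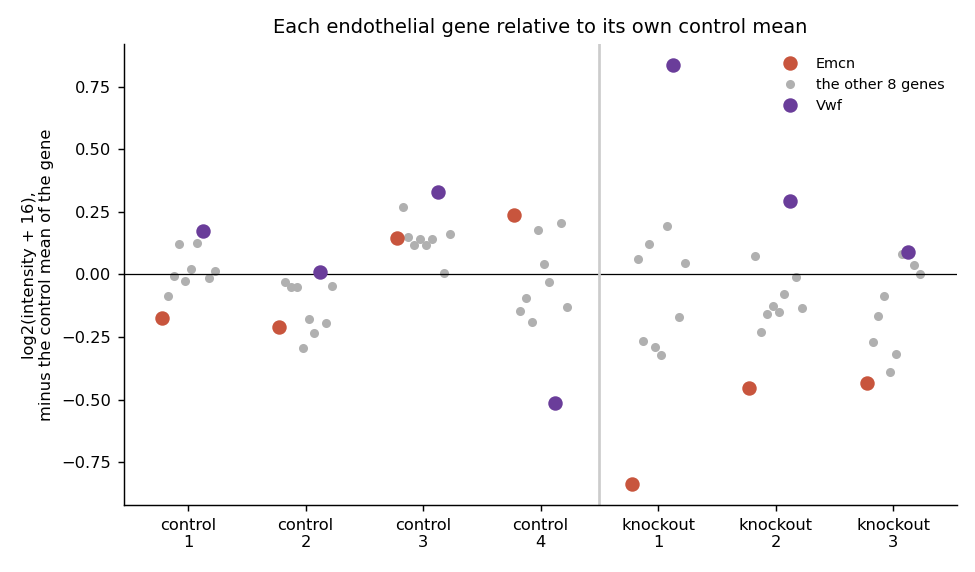
log2(intensity + 16) of each of the 10 genes on each array, minus the gene's mean over the 4 controls, with Emcn in red, Vwf in purple and the other 8 in grey. Emcn lies lowest of the 10 on each of the 3 knockout arrays, and Vwf lies highest on each of them and lowest on control 4.

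Endomucin was also set against the other 9 genes within each array, which removes any factor common to an array. The difference between log2 signal of Emcn and the mean of the other 9 was 0.51, 0.63, 0.71 and 1.03 in controls 1 to 4 and -0.14, 0.33 and 0.40 in knockouts 1 to 3. All knockouts lay under all controls, at 0.72 ± 0.22 in controls and 0.19 ± 0.29 in knockouts (SD, n = 4 and 3). The shift of -0.53 ran from -0.63 to -0.36 with each array left out, and was -0.36 without knockout 1. The mean of the other 9 was 7.59 ± 0.12 in controls and 7.54 ± 0.07 in knockouts. These differences are a description of an unequal shift and were not tested, since the genes were chosen with results known.

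Taken gene by gene, the shift of Emcn relative to Pecam1 was -0.53, with control 4 at 0.33, controls 1 to 3 at -0.14, -0.23 and -0.18, and knockouts 1 to 3 at -0.95, -0.58 and -0.22. Knockout 3 lay inside the control range there. The shift was -0.31 relative to Flt1 and to Tek, and the groups overlapped for both. It was -0.36 relative to Cdh5, -0.53 to Plvap, -0.55 to Robo4, -0.64 to Tie1 and -0.98 to Vwf, and for these 5 genes the knockouts lay under the controls on every array. Relative to Kdr it was -0.53 and the groups overlapped.

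A further 14 pan-endothelial genes were all tested. None passed the adjusted threshold or an unadjusted p under 0.05 in limma. Their log2 fold changes ran from -0.24 to 0.17 with a median of -0.02, and Emcn lay outside that range. There were 8 below and 6 above 0, beside 32.3% of all genes below 0. Ptprb, the phosphatase that restrains TIE2, had the smallest p at 197 ± 32.7 in controls and 163 ± 8.52 in knockouts (-0.24, SE 0.14). Clec14a, a vessel lectin, read 77.7 ± 5.33 and 67.5 ± 1.85 (-0.16). Every Clec14a knockout lay under every control, as for 2.76% of all genes, but its knockout mean was under the signal filter of 69.7. Icam2, an adhesion molecule, read 173 ± 23.4 and 195 ± 12.1 (0.17). The junction genes Cldn5 (-0.02) and Esam (0.04), and the TGF-beta co-receptor Eng (0.07), were closer to 0.

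**Figure D3:**
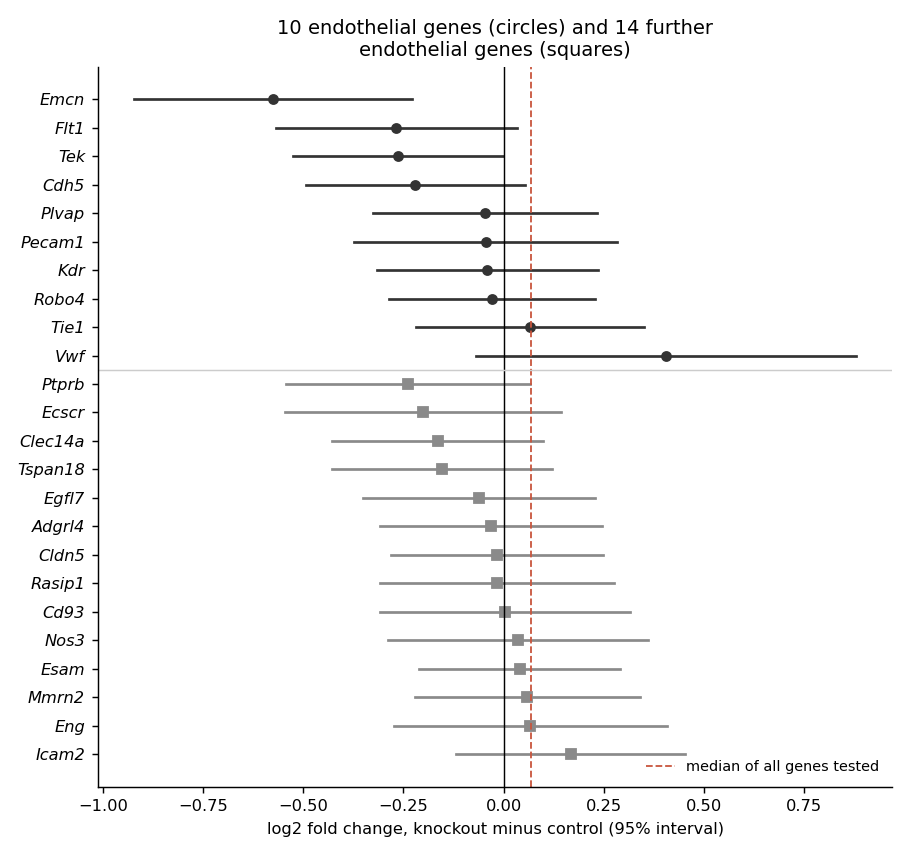
log2 fold change (knockout minus control) with its 95% interval for the 10 endothelial genes (circles) and 14 further endothelial genes (squares), with the median of all genes (0.07) as a dashed line. The Emcn interval (-0.92 to -0.23) lies below 0, the Tek interval ends just below 0 (-0.0015), and the other 22 include it.

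Ligands of these receptors or of their families, and co-receptors, were read next. All 9 tested ligands had an adjusted p above 0.05. At an unadjusted p under 0.05, none was higher, beside 3.77% of all genes, and 2 were lower, beside 2.71%. They were the guidance ligands Slit3, at 243, 166, 263 and 352 in controls 1 to 4 and 152, 176 and 127 in knockouts 1 to 3 (-0.66, SE 0.20), and Slit2, at 254 ± 91.98 and 151 ± 45.2 (-0.67). In both, control 2 lay among the knockouts. SLIT3 from osteoblasts is known to act on type H vessels. Vegfb read 148 ± 6.23 and 176 ± 1.77 (0.23), with all knockouts above all controls, and did not pass. Vegfa (-0.08), the principal vessel growth factor, and the TIE2 ligands Angpt1 (0.11) and Angpt2 (0.19) did not pass either. Pgf was under the filter.

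Of 6 co-receptors and related receptors, 3 were lower at an unadjusted p under 0.05, beside 2.71% of all genes, with adjusted p-values above the threshold. Nrp1, the VEGF co-receptor neuropilin-1, read 213, 216, 244 and 235 in controls 1 to 4 and 176, 184 and 177 in knockouts 1 to 3, with no overlap (-0.32, SE 0.12, limma adjusted p = 0.696). Nrp2 read 278 ± 57.3 and 201 ± 30.9 (-0.42), and Unc5b, a netrin receptor that ROBO4 binds, read 162 ± 49.9 and 112 ± 0.986 (-0.43). For Nrp2, control 2 (195) lay among the knockouts (174 to 235). For Unc5b, control 2 (107) lay under all knockouts (111 to 112). Flt4, the VEGF-C receptor, was at 0.06. Neuropilins are expressed outside endothelium too.

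Among 11 tested endothelial transcription factors 4 were below and 7 above 0, and Mef2c, which muscle and osteocytes also express, was the only one with an unadjusted p under 0.05 (707 ± 206 in controls, 456 ± 20.9 in knockouts, -0.58, limma adjusted p = 0.638). The ETS factor Erg was at 0.06 and Fli1 at 0.15, and Sox18 at -0.08. Tal1 (0.29) and Lyl1 (0.37), which blood progenitors also use, did not pass.

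By vessel type, neither sinusoidal nor arteriolar genes had a member with an unadjusted p under 0.05. The 8 sinusoidal genes had a median of 0.01, 4 below 0 and 4 above, with Stab2, a scavenger receptor of marrow sinusoids, at 0.07 and Lyve1 at -0.03. Il6st, a signalling subunit shared by IL-6 family receptors, had the smallest p among them and read 734, 699, 729 and 740 in controls 1 to 4 and 633, 624 and 647 in knockouts 1 to 3. Every Il6st knockout value lay under every control value, with a log2 fold change of -0.19 (SE 0.12, limma adjusted p = 0.818). Mrc1 was at -0.19 and Sele at -0.10, with overlapping groups. The 8 arteriolar genes had a median of -0.06, with Hey1 and Gja5 both at -0.20. All 9 mural genes, those of pericytes and smooth muscle, were below 0 (median -0.15), beside 32.3% of all genes. Rgs5, a pericyte marker, read 449, 383, 453 and 743 in controls 1 to 4 and 369, 349 and 272 in knockouts 1 to 3, with no overlap (-0.56, SE 0.21, limma adjusted p = 0.682). Control 4 had the highest mural list mean (7.97, the other controls 7.37 to 7.67, knockouts 7.40 to 7.46), and control 2 lay under all knockouts. The lymphatic list had 3 tested genes (median 0.10), and Prox1, its defining factor, was under the filter.

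**Figure D4:**
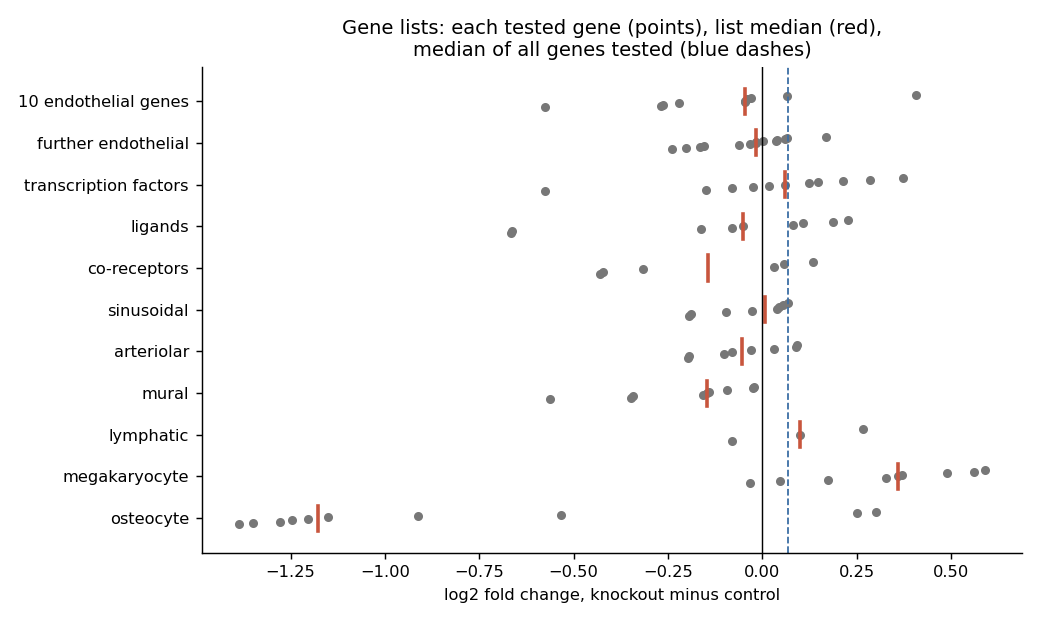
log2 fold change (knockout minus control) of each tested gene in the 10 endothelial genes and 10 context lists, with list medians in red and the median of all genes (0.07) as blue dashes. Of the lists shown, the osteocyte list (median -1.18) and the megakaryocyte list (median 0.36) lie farthest from 0, and the other medians lie between -0.15 and 0.10. Lists not shown include B cell (0.40), adipocyte (-0.29) and erythroid (0.23) markers, whose medians lie outside that range.

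The arrays at the extremes of Emcn and Vwf were also at the extremes of markers of other cell types. The 10 osteocyte markers, all tested, had list means of 8.74, 8.39, 8.50 and 9.496 in controls 1 to 4 and 7.77, 8.10 and 7.91 in knockouts 1 to 3, on the log2 scale, and none was at 0. Of these, 8 were lower and 1 was higher at an unadjusted p under 0.05, beside 2.71% and 3.77% of all genes, with adjusted p-values above the threshold. Like every list here, this one was chosen with earlier results known, so its counts are not independent support. Control 4 was highest and knockout 1 lowest in both Emcn and the osteocyte list, and in both all knockouts lay under all controls. The list median (-1.18) was farther from 0 than Emcn (-0.58), with Phex at -1.28 and Ptprz1 at -1.39. Not every marker went that way. Gja1 was at -0.53, and the 2 markers above 0 were Fgf23 (0.25) and Tnfsf11 (0.30). The knockout mean of Ptprz1 (66.2) was under the signal filter. The part of osteocyte content in the Emcn difference was not tested.

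Of 13 megakaryocyte and platelet markers 9 were tested, with list means of 9.65, 9.68, 9.999 and 9.01 in controls 1 to 4 and 10.15, 9.92 and 9.66 in knockouts 1 to 3. Of these 8 were above 0, with a median of 0.36, and Treml1 was higher at an unadjusted p under 0.05 (541 ± 158 in controls, 792 ± 179 in knockouts). Of all genes, 32.3% were below 0 and 3.77% were higher at that threshold. The brightest of the 9, Ppbp and Pf4, stayed near 0, with log2 fold changes of -0.03 and 0.05. Itga2b, the platelet integrin, read 373, 326, 486 and 179 in controls 1 to 4 and 682, 437 and 400 in knockouts 1 to 3. Vwf, Itga2b and the list mean shared knockout 1 as their highest array and control 4 as their lowest. The mean over all genes had the same end arrays, at 7.73 in knockout 1 and 7.61 in control 4. So did the blood progenitor list, so these ends are not particular to megakaryocyte markers. The part of megakaryocyte content in the Vwf values was not tested. Blood progenitor markers, some of which endothelial cells share, had a median of 0.04, with Cd34 at 0.05. The list medians were 0.23 for erythroid, -0.04 for neutrophil, 0.40 for B cell, -0.29 for adipocyte and -0.06 for muscle markers, and no gene of these lists passed the adjusted threshold. At an unadjusted p under 0.05, 2 of 7 tested B cell genes were higher, beside 3.77% of all genes. Lower at that threshold were 2 of 8 neutrophil genes and 1 of 5 adipocyte genes, beside 2.71%.

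**Figure D5:**
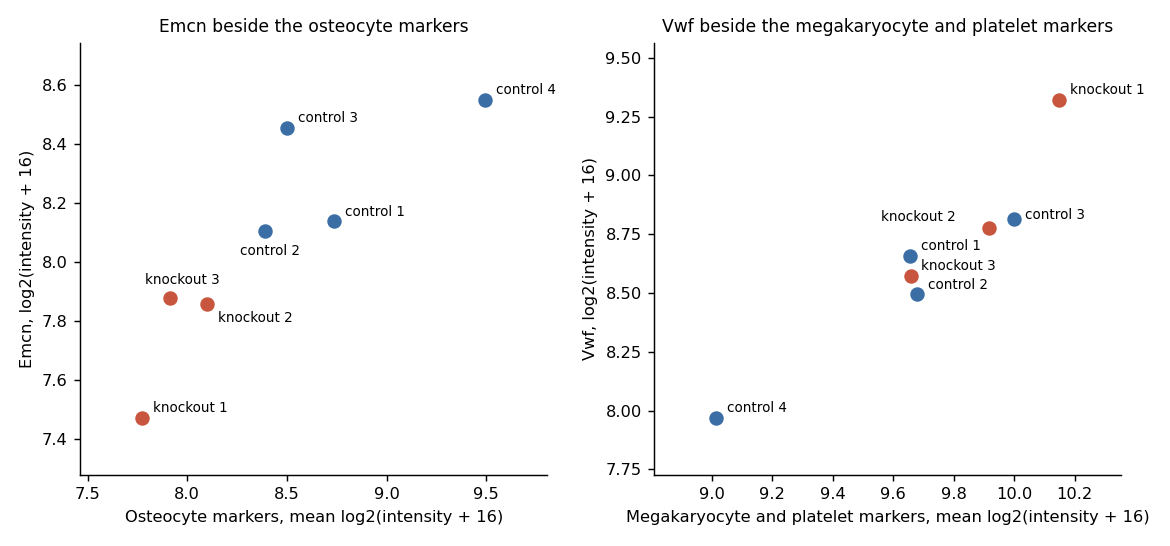
Emcn against the mean of 10 osteocyte markers (left) and Vwf against the mean of 9 megakaryocyte and platelet markers (right) on each of 7 arrays, both axes in log2(intensity + 16), controls in blue and knockouts in red. Control 4 and knockout 1 are the end points of both panels, at opposite ends.

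The 5 genes whose log2 values over the 7 arrays were most like those of Emcn, by Pearson correlation among all genes tested, were E130009M23Rik (0.996), Stox2 (0.981), Prex2 (0.979), App (0.979) and Zcchc3 (0.973). They were picked for this likeness, so it carries no test, and it includes the difference between the groups. None of them was on an endothelial list. Stox2 had a log2 fold change of -0.53 and App one of -0.36.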

How the data were processed

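Gene expression was measured on 1 array per mouse in 7 mice. The deposited table gives 1 linear intensity per probe set and array. Per the submitters' processing notes, PLIER and Affymetrix Expression Console 1.4 were used. The genome build, with their settings and any normalization of arrays to each other, is not given in the sources used here. Probe sets were named by the platform annotation and checked by Entrez identifier against RefSeq (GRCm38.p6), which changed none: 21789 probe sets name 1 gene and were used, 1621 name several and 12146 are unnamed here. Where several probe sets name a gene, the brightest on average was kept. The dimmest 30% of probe sets by mean log2 signal (under 6.42) were not tested. Values were taken as log2(intensity + 16) and compared in limma 3.58.1 (R 4.3.3) with a mean-variance trend, no covariates and 5 residual degrees of freedom (12.6 with those borrowed from other genes). Each array stands for a mouse of its own, per the series' design text.

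The members and the gene lists were chosen with earlier results of these data known. Named genes were the 10 members, up to 3 genes with the smallest p in each of the 16 lists and the 5 genes most correlated with Emcn. Others (Cldn5, Esam, Eng, Vegfa, Angpt1, Angpt2, Flt4, Erg, Fli1, Sox18, Stab2, Lyve1, Cd34, Pgf, Prox1, Gja1, Fgf23, Tnfsf11, Pf4 and Ppbp) were named after their values were seen. The 16 lists held 143 genes, of which 126 were tested. Data were simulated from the measured means and spreads of 13938 genes, with 200 changed. In these, limma's knockout against control test found 20.5% of 1.5-fold changes, 84.5% of 2-fold and 99% of 4-fold changes. Means and spreads of single genes do not carry differences that many genes share on an array, so these shares may be too high here. In the measured data no gene passed. Ptprz1 (log2 fold change -1.39) and Phex (-1.28), both beyond 2-fold, each had a limma adjusted p of 0.559. The alternatives were 2 other filters, 2 other offsets, median centring, quantile normalization, array weights, 2 other variance models, the mean of probe sets, a replicate block, and fits without each array or without controls 3 and 4. Plots were made in Python 3.11.15 (matplotlib 3.10.9).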

Additional observations from a re-analysis of the deposited data

Results flagged for a closer look

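Over the 4 controls, 52 values or list means named here were checked for an array far from the rest, which chance flags in about 1 of 20 groups. The check flagged 1, the osteocyte gene Ptprz1, at 386 in control 4 with the next control at 177 and the lowest at 144.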

How the results depend on the processing

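Emcn stayed below 0 at an unadjusted limma p under 0.05 in all 19 alternatives (log2 fold change -0.65 to -0.39) and passed the adjusted threshold in none (adjusted p 0.116 to 0.9999). Of the members, none passed the adjusted threshold in any. Over all genes, 1 passed with median centring, 1 with robust eBayes, 5 with array weights and 2 without controls 3 and 4, and between 0 and 5 with each array left out. The replicate block, where control 4 has no partner and so adds nothing to the difference, gave 62, with Emcn at -0.50 (adjusted p = 0.116). Same-numbered arrays did not deviate together (correlations of 0.07, 0.15 and -0.53), so the numbers were not taken as a pairing. The 2 members lower at an unadjusted p under 0.05 became 1 with no filter, the 50th percentile filter, an offset of 64, no trend, robust eBayes, array weights, the replicate block or without controls 3 and 4, between 1 and 3 with each array left out (Emcn, Tek and Flt1 without control 2), 3 (the same genes) with median centring, and 4 (Emcn, Tek, Flt1 and Cdh5) after quantile normalization. The number higher was 1 without control 3 and without knockout 3, and 0 in the other 17 alternatives. Members near 0 changed sign. Plvap was 0.0334 with array weights, 0.0217 with the replicate block, 0.0582 without controls 3 and 4, and -0.112 to 0.0217 with each array left out. Pecam1 was 0.0149 without controls 3 and 4 and -0.105 to 0.0681 with each array left out. Leaving out each array gave -0.121 to 0.0177 for Kdr, -0.0727 to 0.0247 for Robo4 and -0.0125 to 0.137 for Tie1. The cause of these changes was not tested. Genes lower at an unadjusted p under 0.05 numbered 378, and 665 after quantile normalization, 589 after median centring, 193 without knockout 1 and 217 without knockout 3. In both directions they numbered 904, and 1867 with array weights, 1655 with the replicate block and 1498 without controls 3 and 4. Tek, Tie1 and Robo4 read nearest the signal filter, where intensity over background limits a change that can be seen.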
